A study of Mus musculus with 6 samples.

Results

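The genes described here are 32 genes of cholesterol and fatty acid synthesis and of the sterol-sensing machinery that controls them, taken by symbol from a table of read counts for 24495 gene symbols. They comprise 5 regulators of the SREBP transcription factors, 7 genes of the mevalonate arm, 11 genes from squalene to cholesterol, 1 sterol carrier and 8 genes of fatty acid synthesis and desaturation. All 32 symbols are in the table, and 31 had enough counts to test. RNA came from cultures of spermatogonial stem cells, the cells that sustain sperm production, taken from testes of DBA2 mice at postnatal days 5 to 8. In the EPZ5676 group (3 libraries) the cultures were kept for 2 weeks with 2 uM EPZ5676, also known as pinometostat, which inhibits the histone methyltransferase DOT1L. In the ethanol group (3 libraries) they were kept for 2 weeks with 0.2% ethanol. The design text calls the triplicates biological, but no label says how many animals or cell lines stand behind them or whether the inhibitor cultures also received ethanol. The p-values therefore measure the spread between these libraries, which may be partly technical.

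Cells make cholesterol from acetyl-CoA through mevalonate, isoprenoid units and squalene. When sterols in the endoplasmic reticulum run low, SCAP escorts SREBP proteins to the Golgi, where they are cleaved and released to enter the nucleus; when sterols are plentiful, INSIG proteins hold SCAP back. SREBP2, encoded by Srebf2, acts mainly on sterol genes, and SREBP1, encoded by Srebf1, mainly on fatty acid genes, so transcripts of the pathway tend to rise and fall with sterol supply. Proliferating cells need both products for membranes.

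Gene counts per library ran from 19866337 to 54645903 with EPZ5676 and from 17784332 to 21046473 with ethanol. CPM express a gene's counts relative to the total of its library, here scaled by TMM factors. The 12 spermatogonial markers summed to 3827 to 3975 CPM with EPZ5676 and to 3620 to 4116 CPM with ethanol, and all 12 had counts in every library. Single markers differed more than the sum: 7 had positive and 5 negative log2 fold changes, and 0 passed an adjusted p of 0.05. Groups did not overlap for 2 of the 12 markers (16.7%), near the 14.9% of all genes tested. Gfra1 was lower with EPZ5676, at 53.2, 59.3 and 44.0 CPM against 73.0, 68.8 and 66.5 CPM with ethanol. Etv5 was higher with EPZ5676, at 105, 101 and 94.3 CPM against 92.8, 84.3 and 87.4 CPM with ethanol. The 14 fibroblast or feeder markers summed to 1480, 1976 and 1628 CPM in EPZ5676 replicates 1, 2 and 3. In ethanol replicates 1, 2 and 3 they summed to 1444, 2675 and 1603 CPM. Both replicate 2 libraries thus held the highest fibroblast sum of their group, and they also stood apart from the other 4 on the first principal component. Of the 14 markers, 12 had negative log2 fold changes (85.7%, against 51.7% of all genes tested). In all 3 replicate pairs, 9 were lower with EPZ5676 (64.3%, against 22.3% of all genes). None of the 14 passed an adjusted p of 0.05 in edgeR, with or without the replicate number as a block. The 6 Leydig cell markers, of which Lhcgr had no count in any library, summed to 5.52 to 6.87 CPM with EPZ5676 and to 7.93 to 10.4 CPM with ethanol. Sums with EPZ5676 were also low for 6 Sertoli markers (4.43 to 7.36 CPM, against 4.56 to 7.11 CPM with ethanol), 8 macrophage markers (12.3 to 18.2 CPM, against 13.9 to 18.8 CPM with ethanol) and 5 adipocyte markers (1.89 to 2.19 CPM, against 1.51 to 1.88 CPM with ethanol). In RNA from whole cultures, fewer cells of a type and less RNA per cell cannot be told apart.

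Transcripts of the pathway were detected in every library for 31 of the 32 genes. The counts behind their tests were higher than for most genes, with a median of 84.6 CPM over the 31 and of 21.7 CPM over all 14855 genes tested, not corrected for length. Levels of different genes are compared only as CPM per kilobase of exon, with exon lengths from GENCODE M21. On that scale Acly, which makes cytosolic acetyl-CoA from citrate, was highest with 299.6 ± 18 in EPZ5676 libraries and 293 ± 20.1 in ethanol libraries (SD, n = 3 each). Insig1, the gene of an INSIG retention factor, followed with 161 ± 11 with EPZ5676 and 165 ± 21.2 with ethanol. Next came Fdps, which makes farnesyl diphosphate, with 138 ± 17.5 CPM per kilobase with EPZ5676 and 148 ± 12.9 with ethanol. Srebf2 and Sqle, the gene of squalene epoxidase, held ranks 4 and 5. The order of Insig1 and Fdps, and of Srebf2 and Sqle, lies within the spread of the libraries. At the low end stood Ebp, a sterol isomerase gene, at 1.60 ± 0.37 CPM per kilobase with EPZ5676 and 1.84 ± 0.13 with ethanol. Tm7sf2, a sterol reductase gene, was lowest at 1.07 ± 0.13 CPM per kilobase with EPZ5676 and 0.97 ± 0.20 with ethanol.

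Hmgcs1, which encodes the cytosolic HMG-CoA synthase at the start of the mevalonate arm, was listed with 0, 1 and 0 counts in EPZ5676 libraries and with 0, 0 and 0 counts in ethanol libraries. Several of its neighbours on mouse chromosome 13 were also near 0, with no count for Nim1k in any library, at most 4 counts for Zfp131 and at most 10 for Ccl28. Others in the same stretch were not: Tmem267 had 54 to 206 counts, 4833420G17Rik 1780 to 5891 and Paip1 568 to 1937. Low values for broadly expressed genes occur elsewhere in the table: Gapdh had 57 to 314 counts and Rps6 129 to 489, against 38240 to 127067 for Actb. These genes were looked up after the value of Hmgcs1 was seen. How reads with several alignments were counted is not given in the sources used here, so a value near 0 says only what the table lists. No fold change is given for Hmgcs1.

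**Figure D1:**
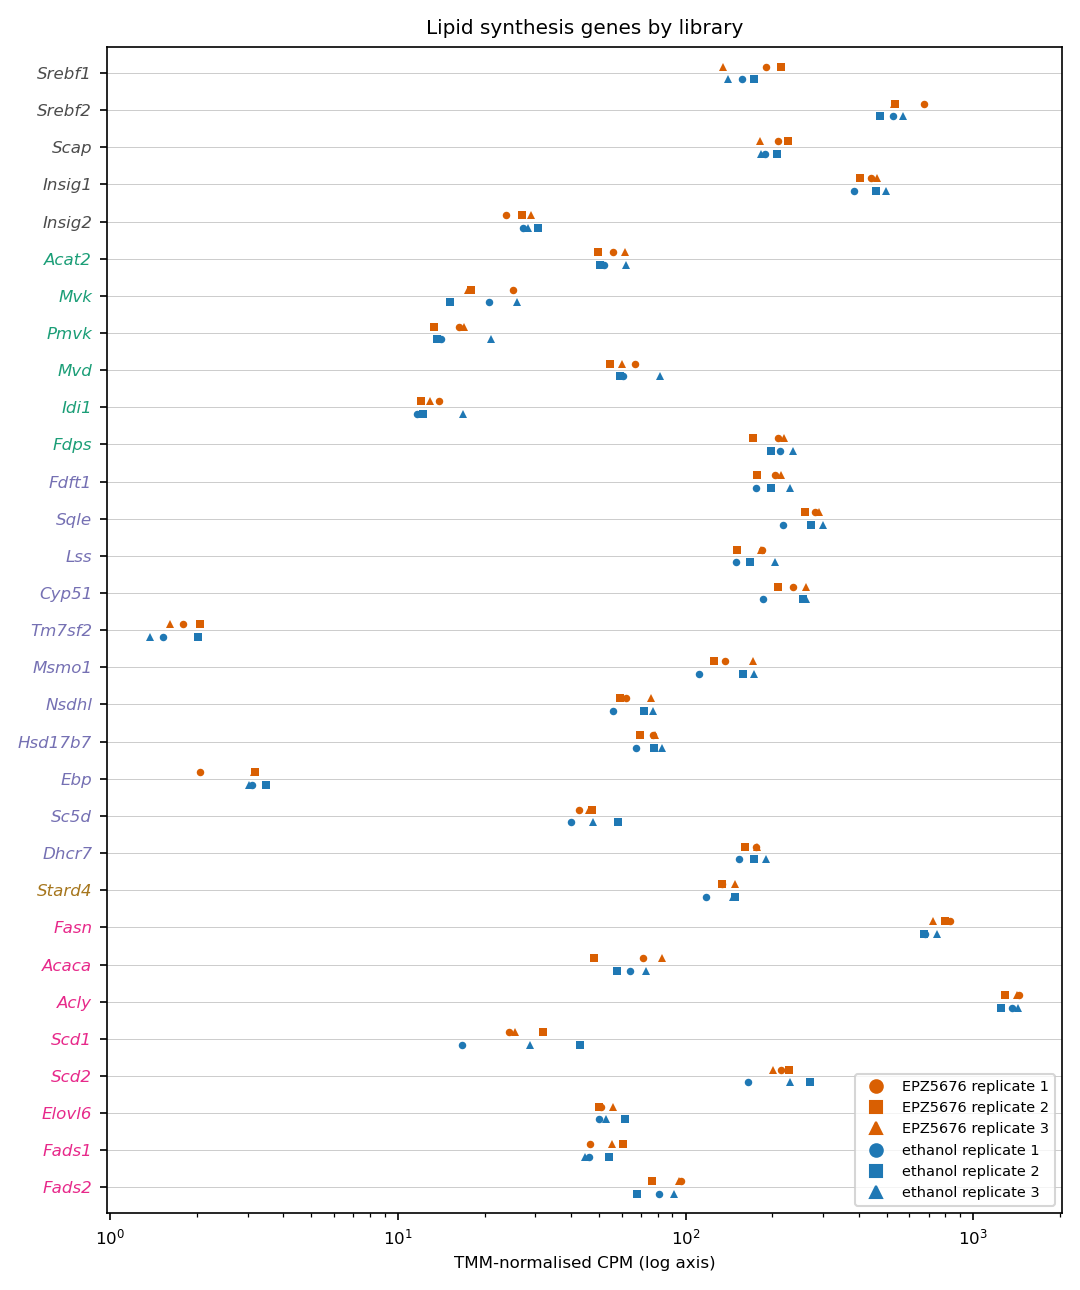
Level of each of the 31 tested genes in every library, in TMM-normalised CPM on a log axis, EPZ5676 above ethanol in each row and replicates 1, 2 and 3 as circle, square and triangle. Gene names are coloured by role, in order: regulators, mevalonate arm, squalene to cholesterol, sterol carrier and fatty acids. The EPZ5676 and ethanol points overlap in all 31 rows.

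Promoters are shown because many genes of the sterol and mevalonate arms were high or low in the same libraries. Any link between motifs and that pattern was not tested. Motifs were counted over all roles, and the windows they are set against were not limited to genes detected here. RefSeq promoter windows on GRCm38.p6 were found for 25 of the 32 genes, and the 250 bases before each start were searched on both strands for the sterol regulatory element, spelled TCACNCCAC, the CCAAT box, whose name is its spelling, and the GC box, spelled GGGCGG. The CCAAT box was present for 19 of the 25 genes and the GC box for 21. By promoter window, 60.6% of the 33 windows of these genes held a CCAAT box and 72.7% a GC box, against 33.8% and 32.7% of all 32851 windows. Both were present in 48.5% of the windows of these genes and in 11% of all windows. The sterol element in this spelling was found only for Hmgcs1, against 1.05% of all windows; a match is a description, and its absence says only that these letters are not in the window. Shown are Hmgcs1, the gene with that element, Insig1 for the regulators, Cyp51 for the sterol arm and Fasn for the fatty acid genes. They lie at chr13:119690101-119690350 on the plus strand for Hmgcs1, chr5:28071162-28071411 on the plus strand for Insig1, chr5:4104698-4104947 on the minus strand for Cyp51 and chr11:120824548-120824797 on the minus strand for Fasn. Each is written 5′ to 3′ with the matched motifs in capitals.
Hmgcs1: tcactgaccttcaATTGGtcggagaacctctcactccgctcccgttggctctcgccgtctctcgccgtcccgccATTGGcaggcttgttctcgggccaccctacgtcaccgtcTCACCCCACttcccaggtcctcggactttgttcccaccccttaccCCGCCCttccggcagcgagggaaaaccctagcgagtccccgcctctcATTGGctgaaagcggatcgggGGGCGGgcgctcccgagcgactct
Insig1: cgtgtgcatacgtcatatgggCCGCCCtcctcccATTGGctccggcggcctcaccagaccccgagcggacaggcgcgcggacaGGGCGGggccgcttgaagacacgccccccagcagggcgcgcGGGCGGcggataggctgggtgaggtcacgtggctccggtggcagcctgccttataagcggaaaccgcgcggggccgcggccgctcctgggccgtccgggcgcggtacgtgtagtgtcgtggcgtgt
Cyp51: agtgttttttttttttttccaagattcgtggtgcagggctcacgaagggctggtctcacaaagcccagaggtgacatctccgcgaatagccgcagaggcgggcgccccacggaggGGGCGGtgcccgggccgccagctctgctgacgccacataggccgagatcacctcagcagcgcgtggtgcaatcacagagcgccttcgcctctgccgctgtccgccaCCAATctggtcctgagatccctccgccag
Fasn: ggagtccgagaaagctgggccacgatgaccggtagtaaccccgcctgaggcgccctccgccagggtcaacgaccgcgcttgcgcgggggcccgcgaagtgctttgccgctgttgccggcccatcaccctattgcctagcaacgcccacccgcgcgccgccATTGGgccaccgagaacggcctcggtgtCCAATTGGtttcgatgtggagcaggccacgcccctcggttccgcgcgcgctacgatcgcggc
The Hmgcs1 window held the sterol element, 3 CCAAT boxes and 2 GC boxes. The Insig1 window held 1 CCAAT box and 3 GC boxes, and the Cyp51 window 1 of each. The Fasn window held 3 CCAAT boxes, of which a pair on opposite strands overlap, and no GC box.

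The comparison of EPZ5676 with ethanol asks which of these transcripts differ when DOT1L is inhibited. None of the 31 tested genes passed an adjusted p of 0.05, and every one of them had overlapping groups. Their log2 fold changes ran from -0.18 to 0.20, with 13 positive and 18 negative (58.1% negative, against 51.7% of all genes). The median was -0.02, against -0.01 over all genes tested, and the median absolute log2 fold change was 0.07, against 0.12 over all genes. Of all genes tested, 30.6% had a larger absolute log2 fold change than any of the 31. These comparisons were not matched for level, with a median of 84.6 CPM over the 31 genes and 21.7 CPM over all genes. They therefore do not show that the 31 genes were unusually stable. The median SD of log2 CPM within groups was 0.196 for the 31 genes, against 0.177 over all genes.

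By the quasi-likelihood test of edgeR, adjusted after Benjamini and Hochberg, 0 of the 31 genes and 0% of all genes passed an adjusted p of 0.05. At an unadjusted p under 0.05 the test gave 0 of the 31, against 7.41% of all genes. With the replicate number as a block, 97 genes passed, 0.653% of all genes and 0 of the 31; at an unadjusted p under 0.05 this fit gave 2 of the 31 (6.45%), against 18.5% of all genes. The smallest adjusted p among the 31 was 0.674 without the block and 0.236 with it. Groups did not overlap for 14.9% of all genes. All 3 replicate pairs differed in the same direction for 4 of the 31 genes, against 41.8% of all genes: Fads1, Fads2 and Tm7sf2 were higher with EPZ5676 in each pair, as were 19.5% of all genes, and Fdps was lower, as were 22.3% of all genes.

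Gene by gene, the intervals show how large a difference the spread between these libraries allows. If that spread is partly technical, the intervals do not bound the effect of the inhibitor. Without the block, the 95% interval of the fold change lay within 1.5-fold in either direction for 28 of the 31 genes, against 60.5% of all genes tested, and within 2-fold for all 31. The 3 others were Ebp, Tm7sf2 and Scd1. The share over all genes was not matched for level here either. Ebp and Tm7sf2 had 40 to 175 and 29 to 113 counts per library, and Scd1 varied most between libraries. With the block, Ebp and Tm7sf2 alone reached beyond 1.5-fold.

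**Figure D2:**
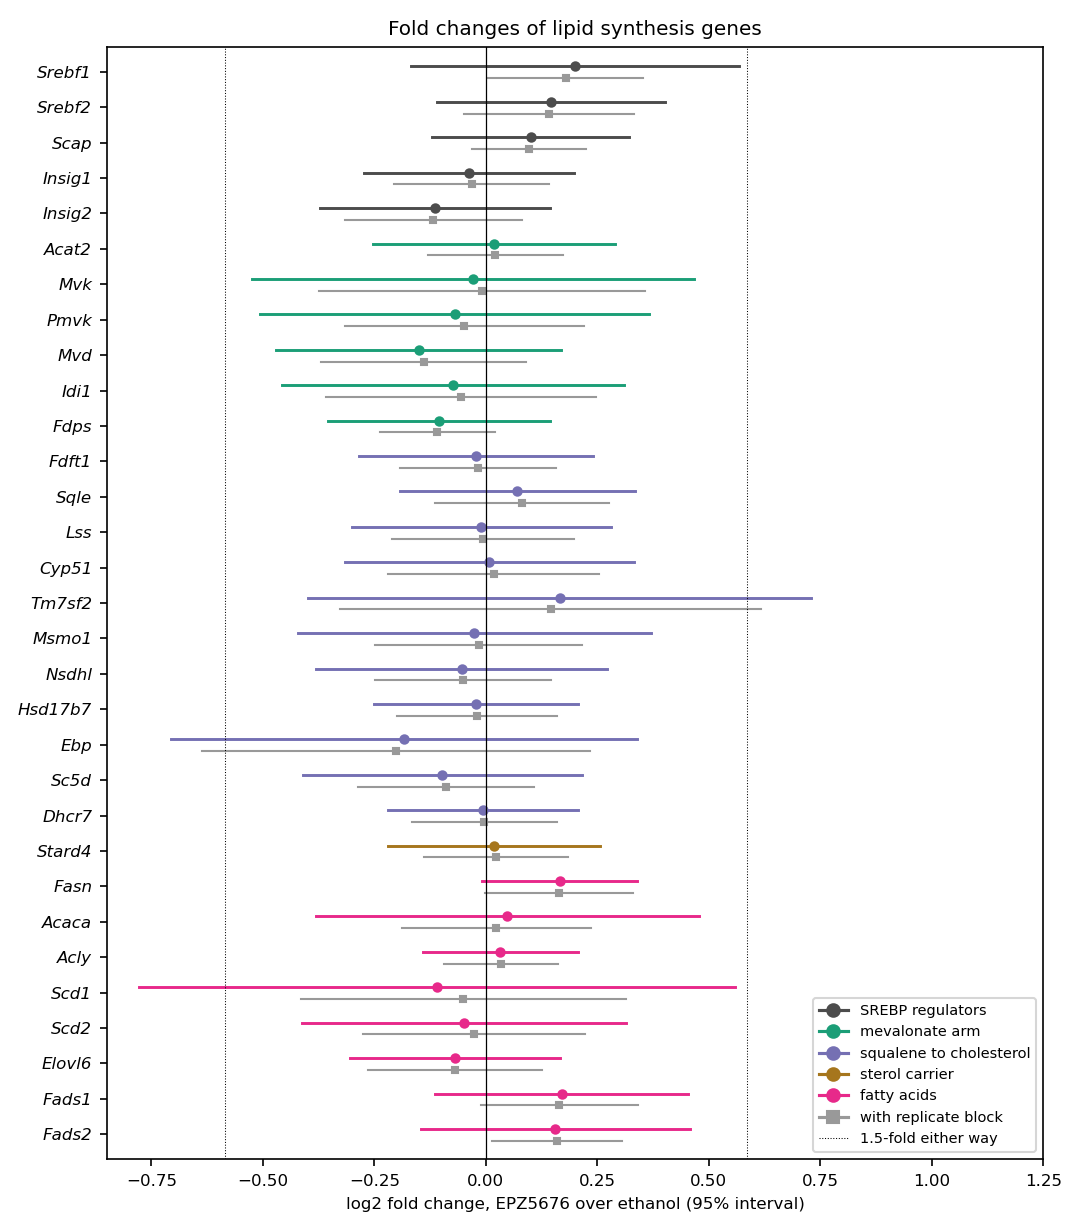
Log2 fold change of each tested gene, EPZ5676 over ethanol, with its 95% interval, without the replicate block (coloured circles) and with it (grey squares). Without the block every interval includes 0, and only Ebp, Tm7sf2 and Scd1 reach past the dotted lines at 1.5-fold.

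**Figure D3:**
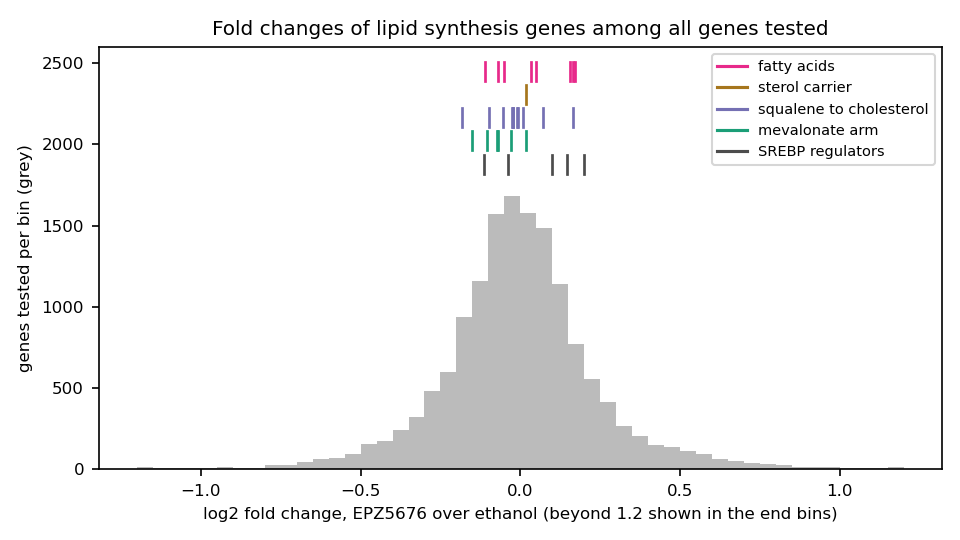
Log2 fold changes without the replicate block, EPZ5676 over ethanol. Grey bars count all 14855 genes tested, and ticks in rows by role mark the 31 genes, which lie between -0.18 and 0.20.

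Among the regulators, the SREBP genes and Scap had positive log2 fold changes and the Insig genes negative ones, and none passed. Srebf1 stood at 190, 215 and 135 CPM in EPZ5676 replicates 1, 2 and 3, against 157, 172 and 140 CPM in ethanol replicates 1, 2 and 3. It was higher with EPZ5676 in pairs 1 and 2 and lower in pair 3. The log2 fold change was 0.20 ± 0.16 (SE), the highest of the 31 genes, and its edgeR adjusted p was 0.81. With the block, Srebf1 had an unadjusted p of 0.0455 and an adjusted p of 0.261 in edgeR. Srebf2 stood at 674, 534 and 531 CPM with EPZ5676, against 525, 474 and 571 CPM with ethanol. The highest library was EPZ5676 replicate 1, and the other 5 overlapped. Its log2 fold change was 0.15 ± 0.11 (SE), with an interval from -0.11 to 0.40.

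Scap, the escort of SREBP, stood at 210, 227 and 182 CPM with EPZ5676 and at 188, 207 and 182 CPM with ethanol. Pairs 1 and 2 differed by 0.15 and 0.13 on the log2 scale, and in pair 3 the values were nearly equal. Insig1 stood at 440, 403 and 461 CPM with EPZ5676 and at 384, 459 and 496 CPM with ethanol. The lowest and the highest values were both ethanol libraries, and the log2 fold change was -0.04 ± 0.10 (SE). Insig2, the gene of the other INSIG retention factor, stood at 23.8, 27.1 and 28.9 CPM with EPZ5676 and at 27.2, 30.8 and 28.4 CPM with ethanol. Its log2 fold change of -0.11 ± 0.11 (SE) was among the 4 lowest of the 31 genes.

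In the mevalonate arm, 5 of 6 tested genes had negative log2 fold changes and none passed. The median was -0.07. In all 6 genes the highest library was ethanol replicate 3. Mvd, which decarboxylates mevalonate diphosphate, stood at 66.7, 54.5 and 60.1 CPM with EPZ5676, against 60.8, 58.9 and 81.3 CPM with ethanol. Ethanol replicate 3 was above the other 5 libraries, and ethanol replicates 1 and 2 lay inside the range of the EPZ5676 values. Its log2 fold change was -0.15 ± 0.14 (SE), and edgeR gave an adjusted p of 0.841. Mvk, the gene of mevalonate kinase, stood at 25.2, 18 and 17.5 CPM with EPZ5676 and at 20.7, 15.1 and 25.9 CPM with ethanol. Its pairs differed by 0.28, 0.25 and -0.56 on the log2 scale, EPZ5676 minus ethanol.

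Pmvk, which encodes the next kinase, stood at 16.3, 13.4 and 17.0 CPM with EPZ5676 and at 14.1, 13.7 and 21.0 CPM with ethanol. Idi1, the isomerase of the isoprenoid units, stood at 13.9, 12 and 13 CPM with EPZ5676 and at 11.6, 12.2 and 16.9 CPM with ethanol. In both genes ethanol replicate 3 lay above the other 5 libraries. Fdps stood at 210, 172 and 220 CPM with EPZ5676 and at 213, 198 and 236 CPM with ethanol, lower with EPZ5676 in each pair by 0.02, 0.21 and 0.10 on the log2 scale. Its log2 fold change was -0.11 ± 0.11 (SE), and edgeR gave an adjusted p of 0.862, or 0.341 once replicates were blocked. Acat2, a thiolase gene at the entry to the pathway, stood at 55.8, 49.5 and 61.7 CPM with EPZ5676 and at 52.0, 50.4 and 62.2 CPM with ethanol, with replicate 3 highest and replicate 2 lowest in each group. All 6 genes averaged lower in the replicate 2 libraries than in the other 4, by a median of -0.24 on the log2 scale. Of all genes tested 48.9% were lower there, as were 8 of the 12 spermatogonial markers. The replicate 2 libraries also had the highest fibroblast sums of their groups, and EPZ5676 replicate 2 had the most counts, 54645903. The part of cell content or depth in these values was not tested.

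From squalene to cholesterol, 8 of 11 genes had negative and 3 positive log2 fold changes, with a median of -0.02 and a median absolute value of 0.03, and none passed. Sqle, a rate-limiting enzyme after squalene, stood at 282, 260 and 291 CPM with EPZ5676, against 219, 272 and 301 CPM with ethanol. The 3 EPZ5676 values lay between the lowest and the highest ethanol values. Its log2 fold change was 0.07 ± 0.12 (SE). Cyp51, lanosterol demethylase, stood at 237, 209 and 262 CPM with EPZ5676 and at 185, 256 and 263 CPM with ethanol, with a log2 fold change of 0.01 ± 0.14 (SE). Msmo1, a sterol methyl oxidase gene with one of the 5 largest spreads, stood at 137, 126 and 172 CPM with EPZ5676 and at 111, 158 and 173 CPM with ethanol. In both genes all EPZ5676 values again lay inside the range of the ethanol values.

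Fdft1, the gene of squalene synthase, stood at 205, 177 and 214 CPM with EPZ5676 and at 176, 198 and 231 CPM with ethanol. Lss, which closes the sterol ring, stood at 185, 151 and 183 CPM with EPZ5676 and at 150, 168 and 204 CPM with ethanol. Dhcr7, which reduces dehydrocholesterol to cholesterol, stood at 176, 161 and 177 CPM with EPZ5676 and at 153, 173 and 190 CPM with ethanol. In all 3 genes ethanol replicate 1 was lowest and ethanol replicate 3 highest, and the log2 fold changes were -0.02, -0.01 and -0.01.

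Nsdhl and Hsd17b7 act in demethylation at the sterol ring. Nsdhl stood at 62.3, 59.0 and 75.8 CPM with EPZ5676 and at 55.7, 71.7 and 76.9 CPM with ethanol. Hsd17b7 stood at 77.2, 69.6 and 78.3 CPM with EPZ5676 and at 67.5, 77.7 and 83.1 CPM with ethanol. Sc5d, a sterol desaturase gene, stood at 42.7, 47.3 and 46.1 CPM with EPZ5676 and at 39.9, 58.1 and 47.8 CPM with ethanol. In these genes too the EPZ5676 values lay inside the range of the ethanol values, with log2 fold changes of -0.05 for Nsdhl, -0.02 for Hsd17b7 and -0.10 for Sc5d. Ebp stood at 2.05, 3.18 and 3.17 CPM with EPZ5676 and at 3.10, 3.47 and 3.04 CPM with ethanol. EPZ5676 replicate 1 alone was low, and the log2 fold change was -0.18 ± 0.23 (SE), the lowest of the 31 genes. Its edgeR adjusted p was 0.888. Tm7sf2 stood at 1.79, 2.05 and 1.61 CPM with EPZ5676 and at 1.53, 2.02 and 1.38 CPM with ethanol. Replicate 2 was the highest of each group, and the log2 fold change was 0.17 ± 0.25 (SE). Stard4, a cytosolic sterol carrier, stood at 134, 134 and 149 CPM with EPZ5676 and at 117, 149 and 146 CPM with ethanol, with a log2 fold change of 0.02 ± 0.10 (SE).

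Among the fatty acid genes, 5 of 8 had positive log2 fold changes, with a median of 0.04, and none passed. Fasn, the fatty acid synthase gene, stood at 829, 797 and 727 CPM with EPZ5676, against 679, 672 and 748 CPM with ethanol. EPZ5676 replicates 1 and 2 were above all ethanol libraries, and EPZ5676 replicate 3 was below ethanol replicate 3. The log2 fold change was 0.17 ± 0.08 (SE), with an interval from -0.01 to 0.34 and the smallest adjusted p of the 31 genes, 0.674 in edgeR. Fads1 and Fads2, which encode the desaturases of polyunsaturated fatty acids, had log2 fold changes of 0.17 ± 0.12 and 0.16 ± 0.13 (SE). Fads1 stood at 46.5, 60.5 and 55.6 CPM with EPZ5676, against 46.0, 54.2 and 44.7 CPM with ethanol. Fads2 stood at 96.7, 76.5 and 94.7 CPM with EPZ5676, against 81.0, 67.9 and 91.1 CPM with ethanol. In both genes EPZ5676 was higher in each pair while the groups overlapped. With the block, Fads2 had an unadjusted p of 0.0345 and an adjusted p of 0.236 in edgeR, and Fads1 an adjusted p of 0.296.

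Acly stood at 1438, 1286 and 1420 CPM with EPZ5676 and at 1366, 1251 and 1434 CPM with ethanol, a log2 fold change of 0.03 ± 0.08 (SE). Acaca, which makes malonyl-CoA, stood at 71.3, 48.0 and 82.8 CPM with EPZ5676 and at 64.1, 57.8 and 72.9 CPM with ethanol. Its lowest library in each group was replicate 2. Elovl6, a fatty acid elongase gene, stood at 50.8, 49.9 and 55.7 CPM with EPZ5676 and at 50.1, 61.3 and 52.8 CPM with ethanol, a log2 fold change of -0.07 ± 0.10 (SE). Scd1, a stearoyl-CoA desaturase gene, stood at 24.2, 31.8 and 25.6 CPM with EPZ5676, against 16.7, 43.0 and 28.8 CPM with ethanol. The highest and the lowest library, 2.57-fold apart, were both ethanol libraries, and no other gene of the 31 differed as much between libraries. Its paralog Scd2 stood at 214, 228 and 202 CPM with EPZ5676 and at 165, 271 and 231 CPM with ethanol, in the same order of ethanol libraries. Reads can be shared between such close paralogs. Both genes were highest in ethanol replicate 2, the library with the highest fibroblast sum. That library was the highest for 6 of the 31 genes (19.4%) and for 26.1% of all genes tested. The part of fibroblasts in the values of Scd1 and Scd2 was not tested.

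Within the ethanol group, many of the genes were low in replicate 1 and high in replicate 3, to an extent that differed by role. Ethanol replicate 1 was the lowest of the 6 libraries for 14 of the 31 genes, against 11.7% of all genes tested, and ethanol replicate 3 the highest for 15, against 15.3% of all genes. From squalene to cholesterol, ethanol replicate 1 was lowest for 9 of 11 genes and ethanol replicate 3 highest for 8 of 11; the exceptions to the first were Tm7sf2 and Ebp. In the mevalonate arm ethanol replicate 1 was lowest for 1 of 6 genes and ethanol replicate 3 highest for 6 of 6. By these extremes the regulators and fatty acid genes differed: ethanol replicate 1 was lowest for 1 of 5 regulators and 2 of 8 fatty acid genes. Ethanol replicate 3 was highest for 1 of 5 regulators and 0 of 8 fatty acid genes. Low values in ethanol replicate 1 were still shared across roles. It lay below the 6-library mean for 5 of 5 regulators and 7 of 8 fatty acid genes, against 47.8% of all genes. Ethanol replicate 3 lay above the mean for 3 of 5 regulators and 6 of 8 fatty acid genes, against 7577 of all 14855 genes. For the 11 genes from squalene to cholesterol, median deviations from their own 6-library means were taken on the log2 scale. They were 0.03, -0.11 and 0.09 in EPZ5676 replicates 1 to 3, against -0.20, 0.11 and 0.16 in the ethanol libraries. Over all genes tested the 6 median deviations lay between -0.003 and 0.008. Sqle differed 1.38-fold, Cyp51 1.42-fold and Msmo1 1.55-fold between ethanol replicate 3 and ethanol replicate 1, their highest and lowest libraries. The SD of CPM was smaller among EPZ5676 than among ethanol libraries for 22 of the 31 genes (71.0%, against 54.7% of all genes). By role this held for 10 of 11 genes from squalene to cholesterol, 5 of 6 of the mevalonate arm, 5 of 8 fatty acid genes and 1 of 5 regulators, and it restates in part which ethanol libraries were lowest and highest.

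**Figure D4:**
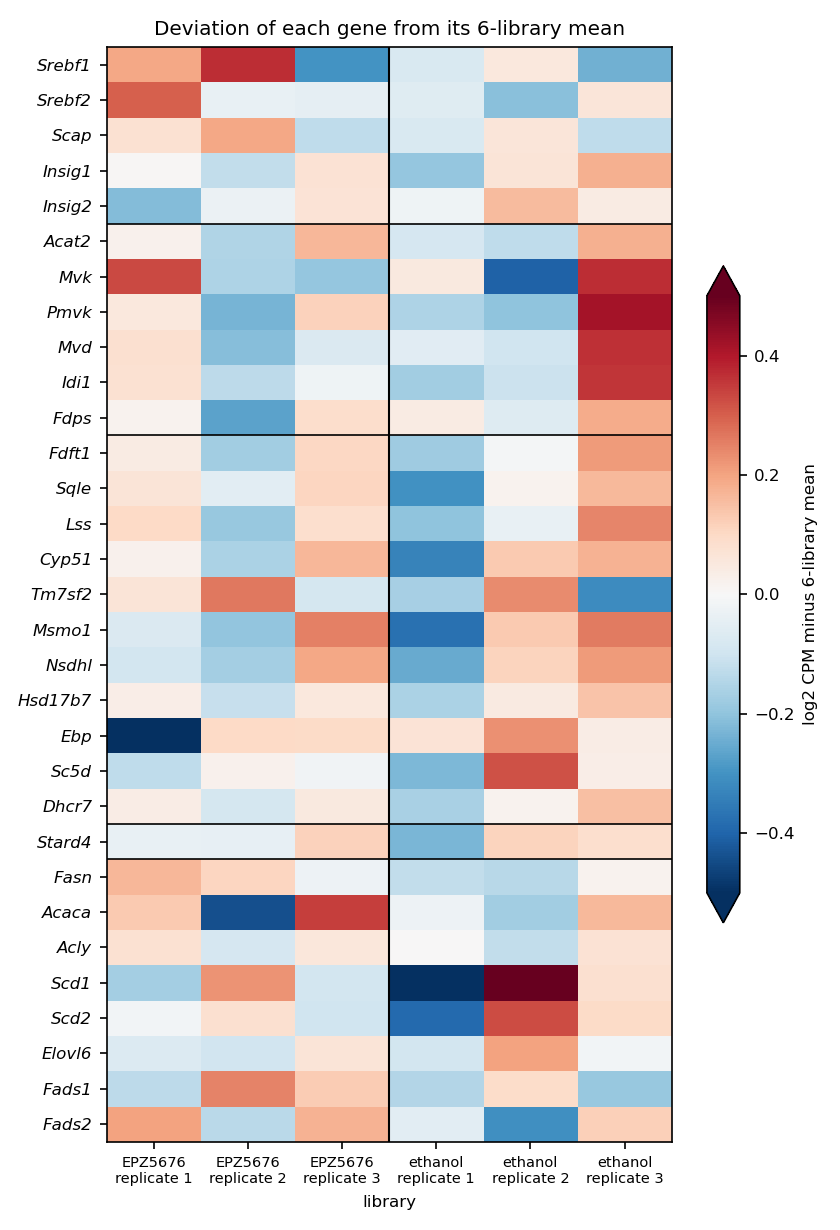
Log2 CPM of each tested gene minus its mean over the 6 libraries, with the 3 EPZ5676 libraries left of the 3 ethanol libraries and horizontal lines between roles. Blue is below and red above the mean; ethanol replicate 1 is blue for 27 of the 31 genes and ethanol replicate 3 red for 26.

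Taken by replicate number, the sign of the difference between EPZ5676 and ethanol depended on the pair. The pairing of replicates 1 and 3 is uncertain. Over the 31 genes, median deviations from the 6-library mean were -0.15 in ethanol replicate 1 and 0.14 in ethanol replicate 3. EPZ5676 replicates 1 and 3, at 0.04 and 0.07, lay between them. The signs in pairs 1 and 3 thus restate in part which ethanol library was low or high. In pair 1, EPZ5676 was higher for 28 of the 31 genes (90.3%, against 50.2% of all genes), with a median difference of 0.20 on the log2 scale. In pair 2 it was higher for 9 (29.0%, against 49.4% of all genes), with a median of -0.13. In pair 3 it was higher for 8 (25.8%, against 47.3% of all genes), with a median of -0.05. Without ethanol replicate 1 the median log2 fold change over the 31 genes was -0.11, and without ethanol replicate 3 it was 0.08; no gene of the 31 passed in edgeR in either case. In the fit with the replicate block and without pair 3, which leaves 1 residual degree of freedom, 3 of the 31 passed as higher with EPZ5676 (9.68%), where 5.1% of all genes passed in either direction and 3.26% as higher. These were Srebf1, Srebf2 and Fasn, with log2 fold changes of 0.29, 0.27 and 0.27 and adjusted p of 0.0194, 0.0433 and 0.0394 in edgeR. All 3 were lower with EPZ5676 in pair 3.

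Summed by arm, the groups overlapped throughout. The 11 genes from squalene to cholesterol summed to 1392 ± 120 CPM with EPZ5676 and to 1392 ± 210 CPM with ethanol (SD, n = 3 each). The mevalonate arm summed to 365 ± 40.1 CPM with EPZ5676 and to 388 ± 49.0 CPM with ethanol. The fatty acid genes summed to 2671 ± 96.6 CPM with EPZ5676 and to 2550 ± 133 CPM with ethanol, and the regulators to 1427 ± 101 CPM with EPZ5676 and to 1348 ± 68.5 CPM with ethanol. In each arm the means of the 2 groups differed by less than the larger of their SDs.

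**Figure D5:**
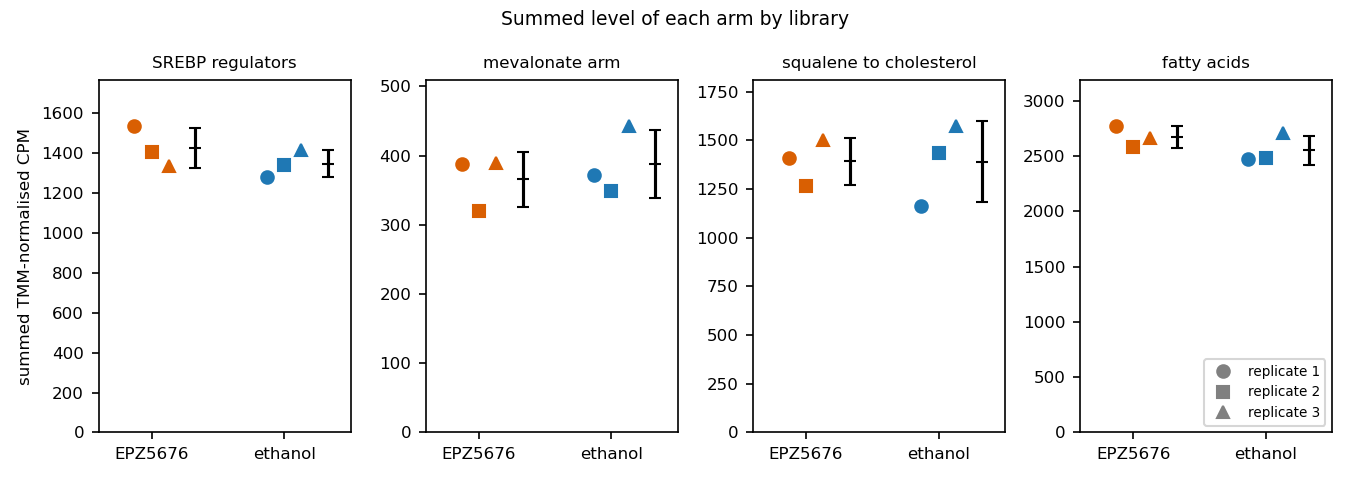
Summed TMM-normalised CPM of the tested and untested genes of each arm by library, EPZ5676 left of ethanol, with replicates 1, 2 and 3 as circle, square and triangle and the mean ± SD in black. The EPZ5676 and ethanol points overlap in all 4 panels.

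Other genes of sterol and lipid metabolism were examined beside them. Of 42 further genes, all tested, 0 passed in edgeR with or without the block, 16 had positive and 26 negative log2 fold changes, and the median was -0.04. Groups did not overlap for 5 of them (11.9%, against 14.9% of all genes). Among 7 genes of SREBP cleavage and of sterol-dependent protein turnover, Mbtps1, the protease of the first SREBP cleavage, stood at 396, 394 and 381 CPM with EPZ5676, against 370, 356 and 361 CPM with ethanol. The groups were apart; the log2 fold change was 0.11 ± 0.06 (SE), and edgeR gave an adjusted p of 0.727. Mbtps2, the second protease, and Erlin2 had log2 fold changes of -0.12 and 0.02.

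Among 14 genes of sterol handling, Osbp, a lipid transfer protein gene, stood at 120, 128 and 136 CPM with EPZ5676, against 101, 119 and 110 CPM with ethanol. Every EPZ5676 library was above every ethanol library, and the log2 fold change was 0.21 ± 0.09 (SE). The edgeR adjusted p was 0.659, or 0.139 once replicates were blocked. Among the alternatives run it passed in 1, with the block and without pair 2, at an adjusted p of 0.0161 in edgeR, a fit in which 5.36% of all genes passed. Nr1h3, which encodes the oxysterol receptor LXR alpha, stood at 1.07, 1.45 and 1.17 CPM with EPZ5676, against 1.93, 1.85 and 1.80 CPM with ethanol. These groups were also apart; the log2 fold change was -0.57 ± 0.23 (SE), and edgeR gave an adjusted p of 0.659. Vldlr and Lrp8, lipoprotein receptor genes, had log2 fold changes of 0.21 and -0.16. Among 21 other genes of isoprenoid, fatty acid and glycerolipid synthesis, Acacb, the mitochondrial isoform of acetyl-CoA carboxylase, stood at 13.6, 19.5 and 11.1 CPM with EPZ5676, against 16.7, 26.1 and 15.3 CPM with ethanol. It was lower with EPZ5676 in each pair while the groups overlapped, and its adjusted p in edgeR was 0.774 without the block and 0.0986 with it. Me1, malic enzyme, and the triglyceride synthesis gene Dgat1 had log2 fold changes of -0.17 and 0.09, and Mid1ip1 one of 0.15.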

How the data were processed

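RNA libraries of 3 EPZ5676 and 3 ethanol cultures were made with a stranded poly(A) kit, per the labels' protocols. The authors deposited whole-number counts per gene symbol; the submitters' processing notes name STAR, featureCounts, edgeR, Bowtie and mm9, with roles and versions not given in the sources used here. Counts were analysed in R 4.3.3 with edgeR 4.0.16: filterByExpr kept 14855 genes, TMM factors scaled the library totals, and a 2-sided quasi-likelihood test set EPZ5676 against ethanol, with Benjamini-Hochberg adjustment over all tested genes (threshold 0.05). SE is the absolute log2 fold change divided by the square root of F. Spread between libraries was taken from log2 CPM with a prior count of 2. DESeq2 1.42.0 and limma 3.58.1 served as alternatives, and the test was checked on simulated counts. No 2 libraries agreed within sampling noise (chi-square per degree of freedom of 3.64 or more).

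Same-numbered libraries deviated together from their group means (correlations 0.41, 0.61 and 0.34 for replicates 1, 2 and 3, all above the bound of 0.1). Crossing numbers 1 and 3 also passed it: 0.28 for EPZ5676 1 against ethanol 3, and 0.15 for EPZ5676 3 against ethanol 1. The bound therefore matched replicate 2 alone and did not separate replicates 1 and 3. Each library correlated most with its own number, so the numbers were taken as pairs, with pairs 1 and 3 less certain. The blocked fit stands beside what it changes, and no label says what the numbers stand for. The genes and lists were chosen with earlier results of these data known. Members were named by role, with full statistics for the 4 highest and lowest fold changes, the 5 highest levels and the 5 largest spreads, and for each related list the 2 highest and 2 lowest, of which 1 gene is not reported here. Genome coordinates and promoters are from RefSeq on GRCm38.p6 and exon lengths from GENCODE M21, not from mm9. The deposited repeat-family counts were not used here.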

Additional observations from a re-analysis of the deposited data

How the results depend on the processing

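Of the 31 tested genes, 0 passed under any alternative except the blocked fit without pair 3, so the count of genes passing ran from 0 to 3 when libraries or pairs were left out. Among the 42 further genes it ran from 0 to 1 (Osbp, blocked, without pair 2). Over all genes, the edgeR count of 0 became 97 with the replicate block, a pairing that changed no call among the 31 genes. It was 10 without both replicate 2 libraries, and ran from 0 to 795 over fits that left out a library or a pair: 0 for each single library, and in the blocked fits 0 without pair 1, 795 without pair 2 and 761 without pair 3. It stayed at 0 with DESeq2 size factors, library totals, either other filter and limma-voom without the block. DESeq2 gave 50 genes and 293 with the block, and limma-voom 29 with the block. The median over the 31 genes ran from -0.11 to 0.08 when libraries or pairs were left out, so its sign was not stable. Each value lay within 0.17, the SD among the 3 pair medians, of the -0.02 given by all 6 libraries. That SD comes from the same libraries, so staying within it does not measure stability. Of 589 values of single genes under alternatives, 81 changed sign, in 21 genes, none of them past the threshold; the cause was not tested. The log2 fold changes of those genes with a library or pair left out spanned the following ranges: Insig1 -0.15 to 0.046, Acat2 -0.063 to 0.12, Mvk -0.21 to 0.27, Pmvk -0.19 to 0.16, Mvd -0.27 to 0.013, Idi1 -0.20 to 0.12, Fdft1 -0.13 to 0.087; Sqle -0.060 to 0.18, Lss -0.15 to 0.12, Cyp51 -0.15 to 0.17, Msmo1 -0.19 to 0.14, Nsdhl -0.18 to 0.067, Hsd17b7 -0.12 to 0.052, Sc5d -0.22 to 0.047; Dhcr7 -0.10 to 0.072, Stard4 -0.082 to 0.11, Acaca -0.13 to 0.25, Acly -0.024 to 0.082, Scd1 -0.39 to 0.26, Scd2 -0.22 to 0.11, Elovl6 -0.14 to 0.050. Without both replicate 2 libraries the genes that changed sign were Insig1 0.035, Fdft1 0.043, Lss 0.053, Msmo1 0.12, Nsdhl 0.057, Hsd17b7 0.046, Sc5d 0.018, Dhcr7 0.040, Scd1 0.13, Scd2 0.068, Elovl6 0.051. Acat2 was -0.0019, Acaca -0.033 and Scd1 0.027 in limma-voom, Cyp51 was -0.0048 with library totals alone, and Dhcr7 was 0.0028 with no filter. Counts of 29 to 175 per library limit what can be said of Ebp and Tm7sf2. Hmgcs1 fell below the filter on low counts; with no filter it was tested on its single count and did not pass.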
